A study of Mus musculus with 12 samples.

Results

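The transcripts described here are those of 4 mouse genes, *Cd4*, *Cd8a*, *Cd8b1* and *Zbtb7b*, which encode the CD4 and CD8 coreceptors of T cells and the transcription factor ThPOK of the CD4 lineage. They were taken by gene symbol, by a rule that sets no threshold on a measured value, and are 4 of 35855 genes for which a summed estimated count was available. All 4 were found in every one of the 12 RNA sequencing libraries and passed the filter on low counts in every comparison. The libraries fall into 4 groups of 3, each labelled as CD8 T cells sorted from spleen: WT and TCF-1 cKO cells before transplant, and WT and TCF-1 cKO donor cells at day 7 after transplant. Donors were on the C57BL/6 background. The TCF-1 cKO mice carried floxed alleles of *Tcf7*, the gene for TCF-1, together with CD4cre, which is driven by *Cd4* regulatory sequences. CD4cre removes TCF-1 from T cells at the CD4 CD8 double-positive stage in the thymus, so that the T cells of these mice passed the later stages after this removal. The labels name no Cre-only control among these libraries. At day 7 the donor cells had been in irradiated BALB/c recipients that also received T cell-depleted WT bone marrow, and the ages of the donors are not given in the labels. 1 day 7 library, replicate 2 of the TCF-1 cKO group, is CD8 by its title and CD4 by its source label. It held 0.453 TPM of *Cd4* and 151 TPM of *Cd8a*, where TPM is an abundance scaled for transcript length and library depth.

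CD4 and CD8 are surface proteins that bind MHC molecules beside the T cell receptor and bring the kinase Lck to it. CD4 binds MHC class II. CD8 binds MHC class I, and on conventional T cells it is a dimer of the α chain, encoded by *Cd8a*, and the β chain, encoded by *Cd8b1*, while a dimer of 2 α chains is found on some dendritic cells and unconventional T cells. In the thymus both coreceptors are made together before 1 of them is silenced. ThPOK, the product of *Zbtb7b*, is needed for the CD4 fate and opposes the CD8 genes, while Runx3 silences *Cd4* and *Zbtb7b* in the CD8 lineage. TCF-1 acts upstream in this choice. The libraries are of spleen cells labelled as CD8 T cells, so they give the levels of these 4 genes after the choice and do not test it.

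*Cd8b1* (ENSMUSG00000053044) lies on the plus strand at chr6:71322788-71337494 of GRCm38 and *Cd8a* (ENSMUSG00000053977) follows it on the same strand at chr6:71373427-71379173, with 35932 bases between them. *Cd4* (ENSMUSG00000023274) is on the minus strand at chr6:124864692-124888221, and *Zbtb7b* (ENSMUSG00000028042) on the minus strand at chr3:89377644-89394776. The files list 5 transcripts of *Cd4*, 3 of *Cd8a*, 1 of *Cd8b1* and 9 of *Zbtb7b*.

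Library totals ranged from 18184814 to 32657005 estimated counts, except for the pre-transplant TCF-1 cKO libraries, which held between 4520270 and 9577076. In those 3 shallow libraries a level of 3 counts, the smallest taken as detectable, corresponds to between 0.313 and 0.664 CPM, that is, counts scaled to a library of equal size. The targeted gene *Tcf7* was between 49.7 and 87.1 TPM in WT and between 22.1 and 38.6 TPM in TCF-1 cKO cells before transplant. At day 7 it was between 2.23 and 6.55 TPM in WT and between 2.79 and 2.97 TPM in TCF-1 cKO cells. The library labelled WT post-transplant replicate 3 was the lowest of these 6, so its label is not borne out by *Tcf7*. A sum over transcripts does not isolate the deleted exons, and it therefore does not test the deletion itself. The labels do not say whether libraries of a group came from separate animals, so p-values measure the spread between these libraries, which may be technical. The library of low *Tcf7* is named wherever a result turns on it.

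The label of sorted CD8 T cells was checked against markers of other cells. Before transplant the 10 genes of a B cell list summed to between 26349 and 42968 TPM in WT and between 15917 and 24386 TPM in TCF-1 cKO libraries. At day 7 the same sum was between 346 and 495 TPM in all 6 libraries. *Cd79a*, a part of the B cell receptor, was between 881 and 1506 TPM before transplant and between 0.438 and 5.86 TPM at day 7, so that this defining marker was near 0 there. Before transplant the 8 myeloid genes summed to between 1843 and 4615 TPM, the 6 NK genes to between 910 and 1842 TPM and the 5 measured erythroid genes to between 4845 and 22852 TPM. None of these lists had a gene at 0 in any pre-transplant library. The 8 myeloid genes summed at day 7 to between 96.8 and 209 TPM in WT and between 236 and 903 TPM in TCF-1 cKO libraries, without overlap. Of the 8, 0 were called lower in TCF-1 cKO and 2 higher, *S100a9* at 2.49 ± 0.72 and *Lyz2* at 2.16 ± 0.73 on the log2 scale. Over all 16026 genes tested in this comparison, 17.9% were called in either direction and 15.4% were called lower. The 9 pan T genes, which include the CD3 chains, summed to between 1255 and 1318 TPM in WT and between 636 and 807 TPM in TCF-1 cKO libraries before transplant. In such bulk libraries, fewer T cells in the sample and less of a transcript in each T cell cannot be told apart, and this holds for every pre-transplant level given here.

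**Figure D1:**
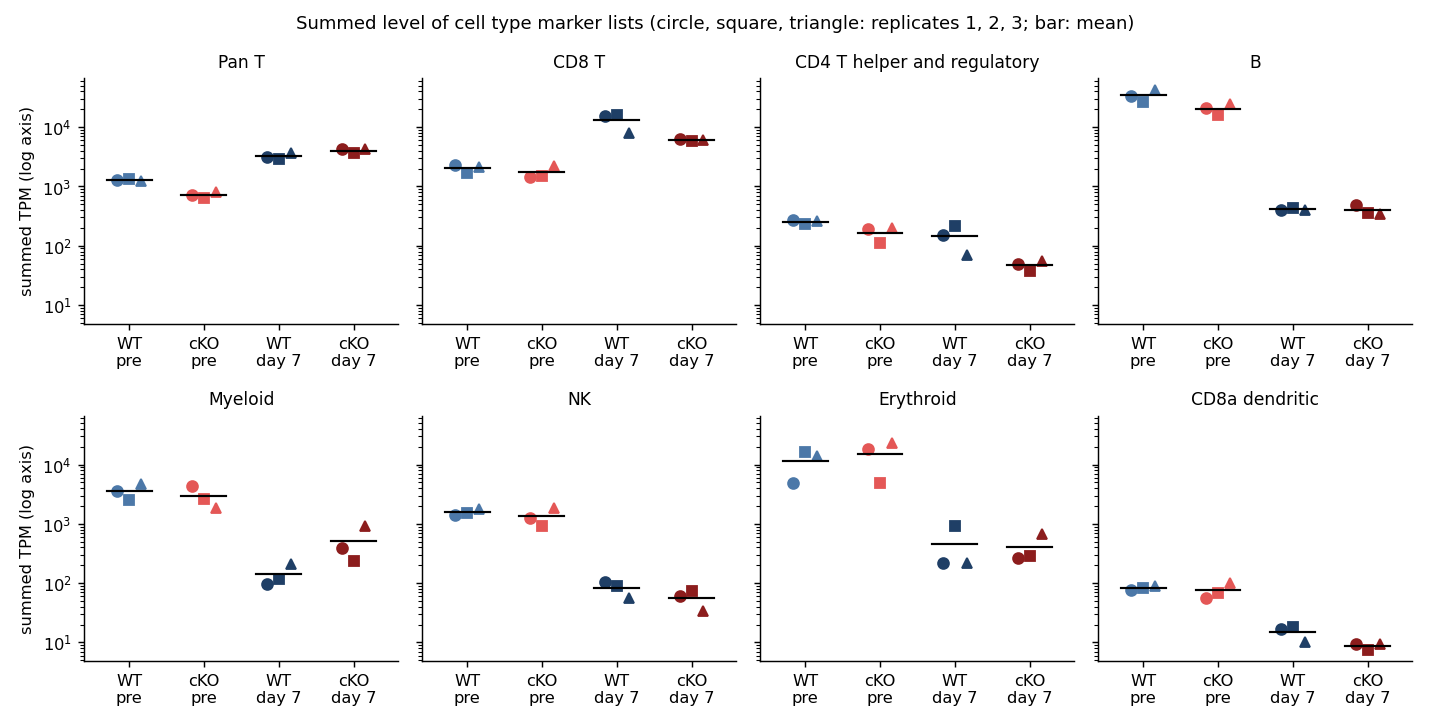
Summed TPM of 8 marker lists in each library (log axis), with 1 point per replicate and a bar at the group mean. The B list lies between 15917 and 42968 TPM in the 6 pre-transplant libraries and between 346 and 495 TPM in the 6 day 7 libraries.

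Both CD8 chains were most abundant at day 7, and *Cd8b1* was above *Cd8a* in every library. *Cd8b1* was at 263, 294 and 289 TPM in the 3 WT libraries before transplant and at 164, 172 and 168 TPM in the TCF-1 cKO libraries. The day 7 levels were 746, 702 and 574 TPM in WT and 592, 583 and 368 TPM in TCF-1 cKO cells. The pre-transplant groups did not overlap, the day 7 groups did, and every day 7 library was above every pre-transplant library. *Cd8a* was at 99.8, 60.0 and 90.9 TPM in WT and at 18.1, 24.6 and 20.1 TPM in TCF-1 cKO cells before transplant. The day 7 levels of *Cd8a* were 182, 183 and 112 TPM in WT and 166, 151 and 113 TPM in TCF-1 cKO cells. The pre-transplant TCF-1 cKO libraries were thus the lowest of the 12 for both chains, and the order of the other 3 groups was WT before transplant below both day 7 groups, which overlapped.

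*Cd4* followed the opposite course. It was at 48.9, 45.3 and 35.0 TPM in WT and at 18.8, 25.0 and 26.7 TPM in TCF-1 cKO libraries before transplant. At day 7 it had fallen to 0.393, 1.06 and 3.51 TPM in WT and to 1.85, 0.453 and 0.918 TPM in TCF-1 cKO cells. The 2 pre-transplant groups did not overlap each other or the day 7 groups, while the day 7 groups overlapped. These day 7 levels rest on between 26 and 80 estimated counts per library. The highest value, 3.51 TPM in the library labelled WT post-transplant replicate 3, came mostly from Cd4-204, a short noncoding transcript at 2.32 TPM and 6.35 counts, and the coding transcript Cd4-201 was at 0.397 TPM there.

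*Zbtb7b*, for ThPOK, was low throughout. It was at 12.3, 6.66 and 7.84 TPM in WT and at 5.04, 4.94 and 5.94 TPM in TCF-1 cKO libraries before transplant. The day 7 levels of *Zbtb7b* were 5.51, 6.26 and 1.02 TPM in WT and 0.937, 0.112 and 1.37 TPM in TCF-1 cKO cells. 2 of the 3 WT libraries at day 7 were above all TCF-1 cKO libraries, and the library labelled WT post-transplant replicate 3 lay among them.

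**Figure D2:**
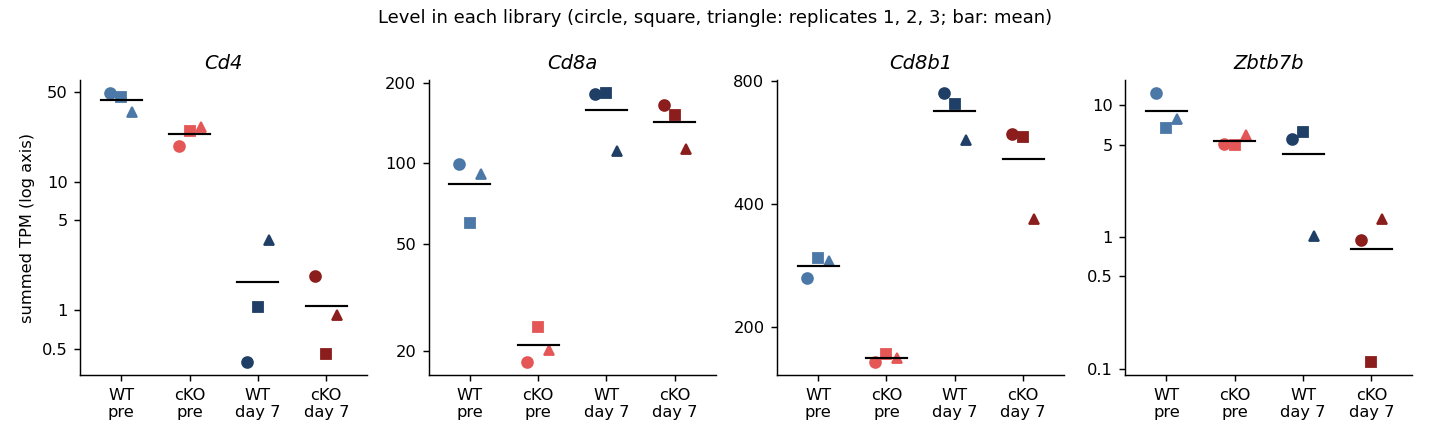
Summed TPM of each gene in the 12 libraries (log axes with a range of their own for each gene), with 1 point per replicate and a bar at the group mean. *Cd4* falls from between 18.8 and 48.9 TPM before transplant to between 0.393 and 3.51 TPM at day 7, while both CD8 chains are highest at day 7.

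Before transplant, all 4 genes were lower in TCF-1 cKO than in WT libraries, and none passed the threshold. The edgeR quasi-likelihood test gave log2 fold changes of -1.96 ± 0.43 (SE, n = 3 per group) for *Cd8a*, -1.39 ± 0.43 for *Cd4*, -0.96 ± 0.39 for *Cd8b1* and -0.85 ± 0.54 for *Zbtb7b*. Their adjusted p-values were 0.179, 0.209, 0.248 and 0.401, in the same order, against an FDR threshold of 0.1. 0 of 4 genes were called in this comparison, in which 0.0373% of 18757 genes tested were called. Without adjustment, 3 of the 4 had a p below 0.05, as did 17.7% of all genes. By the Wald test of DESeq2, *Cd8a* and *Cd4* passed, with adjusted p-values of 0.00157 and 0.0631, and by limma-voom 0 of 4 did. Without the filter on low counts *Cd8a* passed with edgeR (adjusted p = 0.0150). The TPM ranges of the 2 groups did not overlap for any of the 4 genes, and 7.9% of all genes tested were lower without overlap. Without TCF-1 cKO pre-transplant replicate 3 *Cd8a*, *Cd4* and *Cd8b1* passed with edgeR, with adjusted p-values of 0.0212, 0.0234 and 0.0417, and the calls over all genes went from 7 to 2739.

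Genes that T cells share were read beside them. The median log2 fold change of the 9 pan T genes in this comparison was -1.45, against 0.05 over all genes tested, with 0 of 9 called. 8 of the 9 had values below 0, and *Thy1*, a surface protein of T cells, was at 0.34 ± 0.50. The geometric mean of these 9 genes was between 107 and 111 TPM in WT and between 42.4 and 60.1 TPM in TCF-1 cKO libraries before transplant. Set against this mean within each library, the difference between TCF-1 cKO and WT was +0.42 for *Cd8b1* on the log2 scale (two-sided exact permutation p = 0.1, the smallest that 3 against 3 allow), +0.46 for *Zbtb7b* (exact permutation p = 0.3) and +0.29 for *Cd4* (exact permutation p = 0.4). *Cd8a*, summed over all its transcripts, alone kept its direction, with a difference of -0.81 (exact permutation p = 0.2). Its coding transcripts alone, described below, differed by -0.79, less than the pan T mean did (-1.17). They were not tested against that mean. The lower pre-transplant levels of *Cd4*, *Cd8b1* and *Zbtb7b* per library therefore changed sign per pan T level, and none of these differences could be called at this number of libraries.

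At day 7, *Zbtb7b* was the 1 gene of the 4 that passed. Its log2 fold change in TCF-1 cKO against WT was -3.34 ± 0.96 (SE, n = 3 per group, edgeR adjusted p = 0.0621), in a comparison in which 17.9% of 16026 genes tested were called and 15.4% were called lower. The call rests on 33, 10 and 113 estimated counts in the TCF-1 cKO libraries, against 630, 610 and 88 in WT. It was lost in 5 of the 6 fits that left out 1 library, with adjusted p-values between 0.150 and 0.186, and it held without the library labelled WT post-transplant replicate 3 (adjusted p = 0.0125). With GC content and length of genes taken into account, the log2 fold change was -0.60 (adjusted p = 0.652). *Zbtb7b* has a GC content of 60.2%, and the 3 coreceptor genes lie between 49.7% and 51.3%. The exact permutation test of its log2 TPM gave p = 0.2.

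The coreceptor genes did not pass at day 7. The part of the myeloid genes, whose sum was higher in TCF-1 cKO libraries, in the day 7 values of all 4 genes was not tested. *Cd8b1* had a log2 fold change of -0.62 ± 0.39 (95% interval -1.38 to 0.14), *Cd8a* of -0.39 ± 0.43 (95% interval -1.24 to 0.45) and *Cd4* of -0.12 ± 0.71 (95% interval -1.51 to 1.26). Their edgeR adjusted p-values were 0.328, 0.576 and 0.923. The value of *Cd4* rests on at most 80 counts per library, and its sign changed in 6 of 15 alternative fits. Set against the pan T mean, which was lower by 0.82 on the log2 scale in TCF-1 cKO cells at day 7 (a value of -0.82), *Cd8a* was higher by 0.69 and *Cd8b1* by 0.41 in TCF-1 cKO cells, without overlap (exact permutation p = 0.1 for each). This reference is the geometric mean of the 9 pan T genes, and their summed TPM went the other way at day 7. The sum was between 2860 and 3644 TPM in WT and between 3653 and 4247 TPM in TCF-1 cKO libraries, without overlap. The chains were not tested against this sum. The direction of both chains at day 7 therefore depends on the reference, and the pan T reference itself on how its genes are combined.

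Between the stages the 2 coreceptors moved in opposite directions in both genotypes. In WT cells from before transplant to day 7, *Cd4* fell by 4.90 ± 0.69 on the log2 scale (edgeR adjusted p = 0.00233), *Cd8b1* rose by 2.47 ± 0.43 (adjusted p = 0.00551) and *Cd8a* rose by 2.14 ± 0.50 (adjusted p = 0.0189). In this comparison 20% of 16790 genes tested were called, 9.7% higher and 10.3% lower (1628 and 1734 genes, or 2237 and 1442 with GC content and length taken into account). The TPM ranges of the 2 stages did not overlap for the 3 genes, and of all genes tested 4.98% were higher and 44.2% lower without overlap. In TCF-1 cKO cells *Cd4* fell by 2.91 ± 0.59 (edgeR adjusted p = 0.00559), *Cd8a* rose by 4.45 ± 0.38 (adjusted p = 0.000116) and *Cd8b1* rose by 3.53 ± 0.39 (adjusted p = 0.000254), and 36.5% of 18535 genes tested were called, 19.7% higher and 16.8% lower. The TPM ranges again did not overlap, with 8.17% of all genes higher and 59.1% lower without overlap. These 6 calls held in all 15 alternative fits of each comparison. *Zbtb7b* did not pass in either genotype, with 0.23 ± 0.73 (adjusted p = 0.869) in WT and -1.49 ± 0.75 (adjusted p = 0.166) in TCF-1 cKO cells.

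The size of these stage differences depends on the scale. The TMM factors of edgeR were between 1.23 and 2.31 before transplant and between 0.456 and 0.695 at day 7, and they raise the level of a gene at day 7 relative to TPM. On mean TPM, *Cd8a* rose by 0.92 and *Cd8b1* by 1.26 on the log2 scale in WT, and by 2.78 and 1.61 in TCF-1 cKO cells. *Zbtb7b* differed by -1.07 on mean TPM in WT, the opposite sign to its edgeR value, and by -2.72 in TCF-1 cKO cells. Its TPM ranges at the 2 stages did not overlap in either genotype, where 44.2% and 59.1% of all genes were lower without overlap. *Cd4* differed by -4.70 in WT and -4.45 in TCF-1 cKO cells on mean TPM. Set against the pan T mean, which rose by 0.71 in WT and 1.06 in TCF-1 cKO cells, *Cd8a* differed between the stages by 0.21 in WT (exact permutation p = 0.6) and 1.71 in TCF-1 cKO cells (exact permutation p = 0.1), and *Cd8b1* by 0.54 (exact permutation p = 0.1) and 0.53 (exact permutation p = 0.2). *Cd4* differed by -5.93 and -5.70 on that reference, and *Zbtb7b* by -2.11 and -4.34 (exact permutation p = 0.1 for each). Over the same interval 10 of 10 B cell genes fell in both genotypes, as did 7 and 4 of 8 myeloid, 3 and 4 of 6 NK and 5 and 4 of 5 erythroid genes in WT and TCF-1 cKO cells. Of all genes tested, 10.3% fell in WT and 16.8% in TCF-1 cKO cells. The part of these B cell, myeloid, NK and erythroid genes in the stage differences was not tested.

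**Figure D3:**
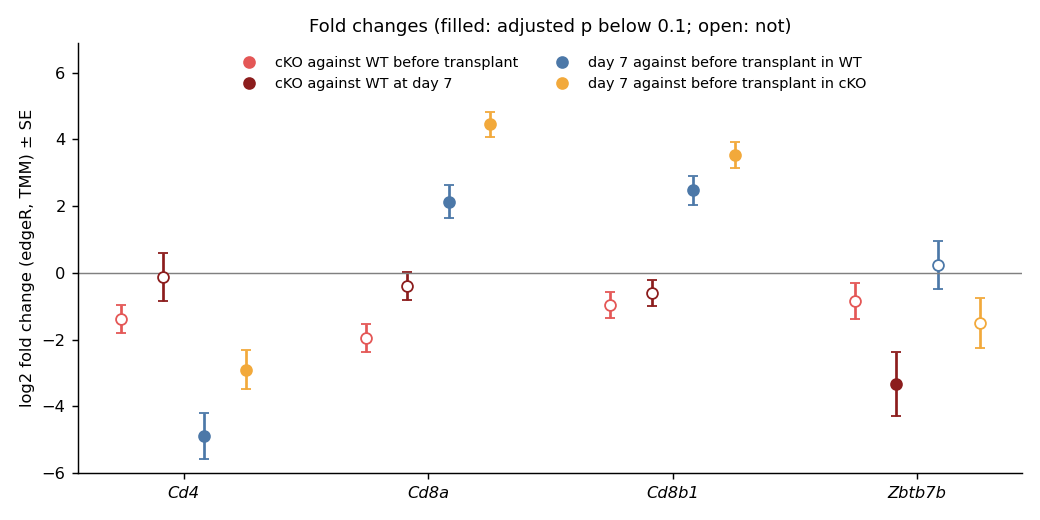
Log2 fold changes of the 4 genes in the 4 comparisons (edgeR with TMM scaling), with bars of 1 SE and filled points where the adjusted p was below 0.1. *Cd4* lies at -4.90 and -2.91 between stages, and *Zbtb7b* at -3.34 is the filled point for TCF-1 cKO against WT.

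Whether the genotype difference itself changed between stages was tested over all 12 libraries. For *Cd8a* the day 7 difference exceeded the pre-transplant difference by 2.08 ± 0.60 on the log2 scale (edgeR adjusted p = 0.233), for *Cd4* by 1.69 ± 0.85 (adjusted p = 0.342) and for *Cd8b1* by 0.81 ± 0.57 (adjusted p = 0.492). For *Zbtb7b* it was lower by 1.95 ± 1.06 on the log2 scale (a value of -1.95, adjusted p = 0.374). 0 of the 4 genes were called, with 0.00465% of 21526 genes tested called. Without adjustment 1 of them, *Cd8a*, had a p below 0.05, as did 15.7% of all genes, and *Cd8a* passed by the Wald test of DESeq2 (adjusted p = 0.0545). By limma-voom 0 of 4 passed.

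Ratios of 2 genes within a library do not depend on scaling between libraries. The ratio of *Cd4* to *Cd8a* was 0.490, 0.754 and 0.385 in the WT libraries before transplant and 1.04, 1.02 and 1.33 in the TCF-1 cKO libraries. After transplant the ratio was 0.00217, 0.00578 and 0.0314 in WT and 0.0112, 0.00299 and 0.00812 in TCF-1 cKO cells. The pre-transplant groups did not overlap, with TCF-1 cKO higher by 1.10 on the log2 scale (exact permutation p = 0.1, adjusted p = 0.2 over 12 ratio tests). All day 7 libraries were far below all pre-transplant libraries, with log2 differences of -6.14 in WT and -7.42 in TCF-1 cKO cells (exact permutation p = 0.1 for each).

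The ratio of *Cd8a* to *Cd8b1*, the α to the β chain, was 0.380, 0.204 and 0.314 in WT and 0.111, 0.143 and 0.120 in TCF-1 cKO libraries before transplant. After transplant the ratio was 0.244, 0.260 and 0.194 in WT and 0.279, 0.260 and 0.307 in TCF-1 cKO cells. TCF-1 cKO was lower before transplant by 1.23 on the log2 scale (a value of -1.23, exact permutation p = 0.1) and higher by 0.29 at day 7 (exact permutation p = 0.2). The genotype difference of this ratio changed between stages by 1.51 on the log2 scale (exact permutation p = 0.01 over 400 assignments within stages, adjusted p = 0.03 over 3 ratios). The value depends on which *Cd8a* transcripts are counted, and it was 0.41 with the coding transcripts alone (exact permutation p = 0.375), an alternative described with the transcripts. The assignments permute genotype labels freely within each stage. Such a p-value is therefore against no genotype difference at either stage, and it does not test an equal difference at both. The same holds for the changes of the other ratios.

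The ratio of *Zbtb7b* to *Cd4* was 0.251, 0.147 and 0.224 in WT and 0.268, 0.197 and 0.223 in TCF-1 cKO libraries before transplant, with overlapping groups and a log2 difference of 0.17 (exact permutation p = 0.7). After transplant the groups overlapped, with a log2 difference of -2.29 (exact permutation p = 0.3), and the library labelled WT post-transplant replicate 3, at 0.290, lay within the TCF-1 cKO range. Its genotype difference changed between stages by -2.46 (exact permutation p = 0.245). On estimated counts, a scale chosen after seeing the data, the change was -3.99 (exact permutation, adjusted p = 0.045 over 3 ratios), and without WT post-transplant replicate 3 it was -4.11 (adjusted p = 0.0675, exact permutation).

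*Cd8a* has 2 coding transcripts and another, Cd8a-203, that is annotated as a retained intron. Cd8a-203 keeps the 505 bases of intron 1 (chr6:71373998-71374502) and ends 1562 bases before Cd8a-201, and reads over either feature can set it apart. The join that the coding transcripts make and the run into the intron are shown because the counts of these forms differed between groups. Sequences are 5′ to 3′ on the plus strand, from the GENCODE M21 transcripts of GRCm38. The join spans chr6:71373968-71374532 and the run into the intron is chr6:71373968-71374027, and capitals mark bases of intron 1.
Cd8a-201: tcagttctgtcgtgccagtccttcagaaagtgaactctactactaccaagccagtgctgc
Cd8a-203: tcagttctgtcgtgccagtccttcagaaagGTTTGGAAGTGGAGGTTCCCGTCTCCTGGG

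Cd8a-203 held 67.0%, 57.1% and 68.3% of the *Cd8a* counts in WT libraries before transplant, and between 63.9% and 67.0% in all 6 day 7 libraries. In the TCF-1 cKO libraries before transplant it held 8.47% (Wilson 95% interval 5.94 to 12.3), 27.7% (23.1 to 33.2) and 53.9% (49.3 to 58.4), on totals of 302, 298 and 455 counts. These intervals cover counting error only, and they do not overlap each other. The group was thus both below the others and uneven, and the 3 libraries are the shallowest of the 12.

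The coding transcripts alone gave another picture. Their summed TPM was 22.6, 18.8 and 19.5 in WT and 15.7, 14.9 and 6.87 in TCF-1 cKO libraries before transplant, and between 27.8 and 43.4 in all day 7 libraries. TCF-1 cKO was lower by 0.79 before transplant on the log2 scale (a value of -0.79, exact permutation p = 0.1). For Cd8a-203 alone the difference was -3.16 (exact permutation p = 0.1). The ratio of coding *Cd8a* to *Cd8b1* was 0.0862, 0.0640 and 0.0675 in WT and 0.0954, 0.0868 and 0.0410 in TCF-1 cKO libraries before transplant. The means were 0.0726 ± 0.0119 (SD, n = 3) in WT and 0.0744 ± 0.0293 in TCF-1 cKO libraries, a log2 difference of -0.04 (exact permutation p = 1). At day 7 this ratio was higher in TCF-1 cKO cells by 0.36 on the log2 scale, without overlap (exact permutation p = 0.1). The change of its genotype difference between stages was 0.41 (exact permutation p = 0.375). The ratio of *Cd4* to coding *Cd8a* differed by -0.08 before transplant (exact permutation p = 0.9), against 1.10 for the whole gene. The lower *Cd8a* to *Cd8b1* and higher *Cd4* to *Cd8a* ratios of TCF-1 cKO cells before transplant were therefore not seen with the coding transcripts. This alternative was chosen after the transcript shares were seen.

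**Figure D4:**
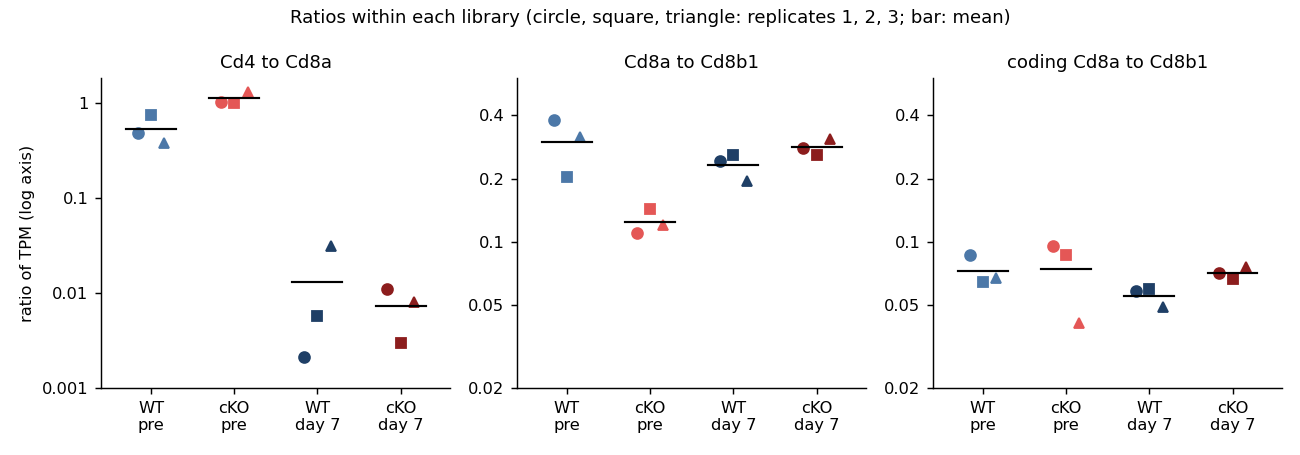
Ratios of TPM in each library (log axes), with 1 point per replicate and a bar at the group mean. The ratio of *Cd8a* to *Cd8b1* is between 0.111 and 0.143 in pre-transplant TCF-1 cKO libraries and between 0.204 and 0.380 in WT, while the ratio of coding *Cd8a* to *Cd8b1* overlaps between these groups.

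The coding transcripts differ by exon 4 of Cd8a-201, a stretch of 31 bases at chr6:71375888-71375918 that Cd8a-202 leaves out. Exon 4 codes for the part of the cytoplasmic tail that binds Lck, and the shorter form, known as α′, lacks it. The reading frame shifts, so that Cd8a-201 codes for 247 residues and Cd8a-202 for 222. The join is shown in both forms with 30 bases on each side, over the genomic span chr6:71374840-71376889, and capitals mark exon 4.
Cd8a-201: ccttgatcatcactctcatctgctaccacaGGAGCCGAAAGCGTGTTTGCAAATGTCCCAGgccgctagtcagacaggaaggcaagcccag
Cd8a-202: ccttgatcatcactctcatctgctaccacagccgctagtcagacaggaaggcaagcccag

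Of the counts of both coding transcripts, Cd8a-202 held between 17.4% and 31.5% in WT and between 0% and 27.2% in TCF-1 cKO libraries before transplant. After transplant it held 38.2%, 31.7% and 34.8% in WT and 43.9%, 38.5% and 45.1% in TCF-1 cKO cells. The day 7 groups did not overlap, with 38.2% the highest in WT and 38.5% the lowest in TCF-1 cKO cells. Shares were described and not tested, since pseudoalignment divides shared reads between transcripts.

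The transcripts of *Zbtb7b* code for the same 544 residues in the 3 forms checked and differ in their first exons, of between 116 and 328 bases. The first exon nearest to the coding part (Zbtb7b-203 and Zbtb7b-204) held 94.2%, 43.8% and 43.8% of the counts in WT libraries before transplant and between 0.797% and 2.93% in the TCF-1 cKO libraries. At day 7 it held 0.860%, 50.4% and 2.20% in WT and between 0.879% and 3.21% in TCF-1 cKO cells. The next first exon upstream (Zbtb7b-202), which starts 4880 bases away from that of Zbtb7b-203, held between 78.6% and 99.1% in TCF-1 cKO cells at day 7. WT libraries were therefore mixed and uneven in the first exon used, and all 6 TCF-1 cKO libraries were low for the nearest one. The 6 TCF-1 cKO libraries held between 10 and 206 *Zbtb7b* counts each.

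*Cd4* was almost all Cd4-201, the coding transcript, in WT libraries before transplant, with shares between 97.4% and 99.5%. Cd4-202, annotated as a retained intron, held at most 0.566% there and 7.91%, 14.6% and 5.06% in the TCF-1 cKO libraries, on between 20.6 and 36.3 estimated counts. Cd4-201 alone was at 13.7, 13.7 and 22.1 TPM in TCF-1 cKO and at 48.3, 42.5 and 34.5 TPM in WT libraries, so the groups did not overlap for the coding form either.

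**Figure D5:**
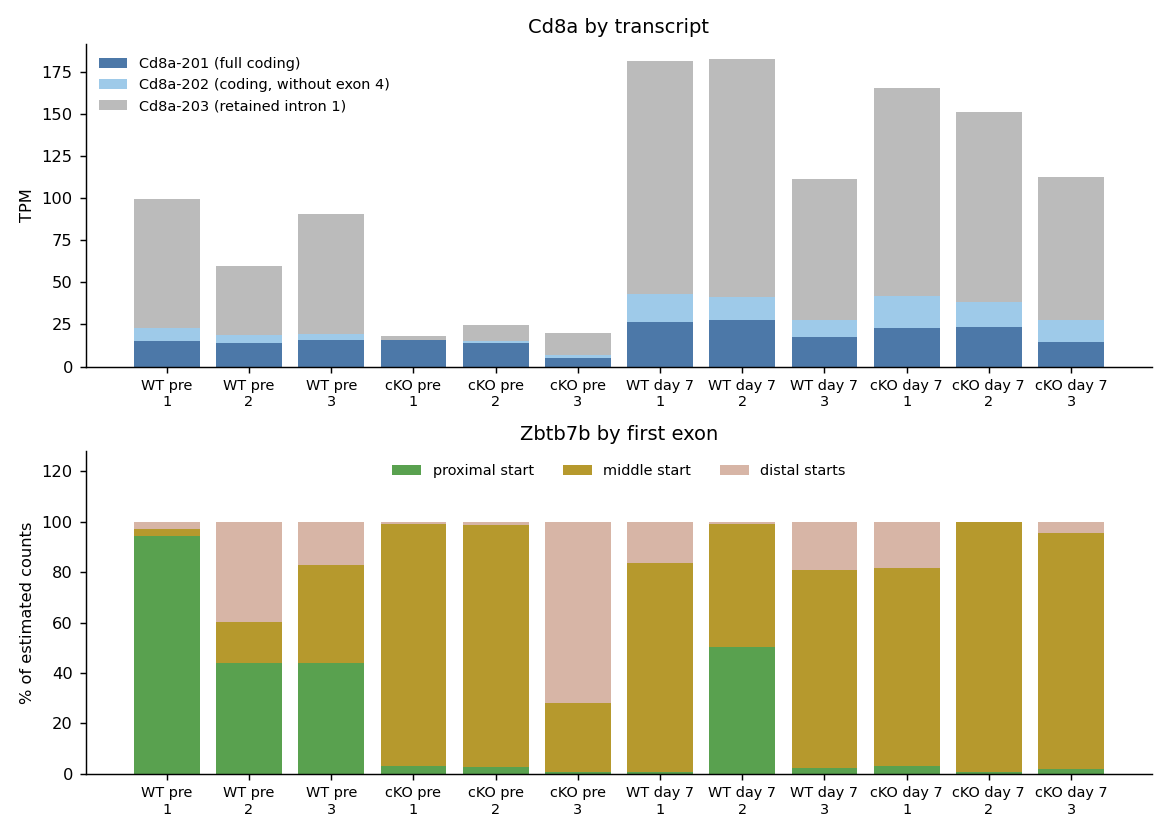
TPM of the 3 *Cd8a* transcripts (upper panel) and share of *Zbtb7b* estimated counts by first exon (lower panel) in each library. Cd8a-203 makes up most of the bar in all libraries but 2 of the pre-transplant TCF-1 cKO libraries, and the proximal *Zbtb7b* start is at most 3.21% in every TCF-1 cKO library.

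Of the 4 genes, a 250-base window before the annotated start was available for *Cd8a* (RefSeq, GRCm38.p6, chr6:71373177-71373426, plus strand). It is shown because TCF-1, the deleted factor, binds DNA with a CTTTG core. Capitals mark the letters CTTTG, of which there are 2, the first at position -59 from the start.
Cd8a upstream: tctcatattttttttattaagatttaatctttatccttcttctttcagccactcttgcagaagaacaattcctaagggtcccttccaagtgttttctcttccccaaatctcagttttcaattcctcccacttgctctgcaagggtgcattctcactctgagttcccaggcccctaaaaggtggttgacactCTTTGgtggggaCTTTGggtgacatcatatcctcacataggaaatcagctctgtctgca
CTTTG or its reverse CAAAG was found in 48.6% of 32851 such windows, so 2 matches are a description and not a site. The longer letters CTTTGA or TCAAAG (13.8% of windows), the Runx letters TGTGGT or ACCACA (14% of windows) and the E-box CAGCTG (13% of windows) were not in this window.

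The T cell receptor complex and the kinases linked to the coreceptors were taken as a list of 15 genes. Before transplant 0 of 15 passed by edgeR, with a median log2 fold change of -1.46 in TCF-1 cKO against WT. *Trbc2* and *Trbc1*, the β chain constant regions, had values of -1.53 ± 0.44 and -1.48 ± 0.45. From before transplant to day 7, edgeR with TMM scaling called 11 of 15 higher in WT and 13 of 15 in TCF-1 cKO cells. None of the 15 was called lower. In WT the 2 with the smallest p were *Trbc2* at 3.47 ± 0.49 and *Zap70*, the kinase that binds the CD3 chains, at 4.11 ± 0.65. In TCF-1 cKO cells they were *Cd3g* at 6.04 ± 0.43 and *Cd3d* at 5.04 ± 0.43. Over all genes tested 9.7% were called higher in WT and 19.7% in TCF-1 cKO cells. These calls depend on the scale. In TCF-1 cKO cells the mean TPM fell for *Ptprc* (212 to 138), *Cd3e* (62.7 to 53.8) and *Fyn* (12.2 to 11.8). It rose for the other genes called higher there. In the day 7 comparison of genotypes 6 of 15 were called lower and 1 higher. Of all genes, 17.9% were called in either direction and 15.4% lower. *Unc119*, an adaptor that activates Lck, was at -3.52 ± 0.76, *Lat*, the adaptor phosphorylated by Zap70, at -3.10 ± 0.69, and *Ptprc*, which encodes CD45, at 1.38 ± 0.47 (edgeR adjusted p = 0.0991). With GC content and length taken into account the calls of this comparison went from 2868 to 583 over all genes.

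Of 9 genes for the ligands of the coreceptors, 5 fell in WT and 6 in TCF-1 cKO cells between the stages, against 10.3% and 16.8% of all genes. The sixth in TCF-1 cKO cells was *H2-T3*, a class I-like gene, at -2.04 ± 0.68 (edgeR adjusted p = 0.0519), and the others belong to class II or its control. *Cd74*, the invariant chain of MHC class II, changed by -7.09 ± 0.73 in WT and -7.95 ± 0.77 in TCF-1 cKO cells, and *H2-Aa*, a class II chain, by -7.07 ± 0.76 and -6.86 ± 0.61. These are genes of antigen-presenting cells in the mouse and moved with the B cell list. *B2m*, the light chain of class I, was called higher in TCF-1 cKO cells, at 1.53 ± 0.33 with TMM scaling. Its mean TPM went the other way, from 1476 before transplant to 1074 at day 7, with overlapping ranges. At day 7, 3 of 9 were lower in TCF-1 cKO than in WT cells, against 15.4% of all genes. They were the class I chains *H2-D1* at -3.43 ± 0.68 and *H2-K1* at -2.55 ± 0.56 and the class II chain *H2-Ab1* at -2.23 ± 0.73. Before transplant 0 of 9 passed, and *Cd74* and *H2-Ab1* had values of -0.43 ± 0.53 and -0.42 ± 0.52.

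Of 24 regulators of the CD4 and CD8 choice, 0 passed before transplant, with a median log2 fold change of -0.86. *Ets1* and *Tcf3*, the most abundant, had values of -0.85 ± 0.41 and -1.37 ± 0.49. At day 7, 8 of 24 were lower in TCF-1 cKO cells and none higher, against 15.4% of all genes called lower. They were led by *Tcf3*, which encodes the E proteins E12 and E47, at -4.15 ± 0.89 and *Socs1*, an inhibitor of cytokine signals, at -3.77 ± 0.82. These 2 have GC contents of 62.0% and 58.5%. Calls over all genes in this comparison were fewer with GC content and length taken into account, and ranged from 0 to 5299 with 1 library left out. Between the stages, 7 of 24 were called lower in WT, against 10.3% of all genes. In TCF-1 cKO cells 7 were called lower and 3 higher, against 16.8% and 19.7% of all genes. *Bach2* and *Bcl6*, repressors of effector programs, led the falls in both, at -3.78 ± 0.80 and -3.69 ± 0.82 in WT and -3.17 ± 0.50 and -2.70 ± 0.66 in TCF-1 cKO cells. *Tox*, a nuclear factor needed for CD4 cells in the thymus, was called higher in TCF-1 cKO cells at 2.32 ± 0.42. *Cbfb*, the partner of Runx proteins, was called higher there at 1.84 ± 0.43. These calls use TMM scaling. On mean TPM *Tox* went from 6.67 to 7.24, *Cbfb* from 12.5 to 9.96 and *Ikzf3*, the other gene called higher, from 42.6 to 26.9. *Runx3*, picked with its values known, was between 24.6 and 33.8 TPM in WT and between 8.68 and 27.9 TPM in TCF-1 cKO libraries before transplant, and between 9.53 and 25.9 TPM and between 2.88 and 4.85 TPM at day 7.

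Markers of CD4 T cells were read beside *Cd4*. Before transplant *Cd40lg*, the CD40 ligand of helper cells, was between 14.6 and 20.6 TPM in WT and between 0.679 and 3.58 TPM in TCF-1 cKO libraries. *Foxp3*, of regulatory cells, was between 11.1 and 27.6 TPM in WT and between 0.663 and 7.50 TPM in TCF-1 cKO libraries. These 2 genes were picked with their values known, and some other members of the list did not follow them. *Ccr4*, a chemokine receptor of helper cells, had a mean of 1.54 TPM in WT and 4.99 TPM in TCF-1 cKO libraries and a log2 fold change of 1.93 ± 0.90, *Il4* was at 0.55 ± 1.73 and *Cxcr5* at -0.04 ± 0.44, none of them called. The whole list of 10 genes summed to between 234 and 269 TPM in WT and between 111 and 199 TPM in TCF-1 cKO libraries, with 0 of 10 called and at most 1 gene at 0 in a library. *Cxcr5*, which B cells also express, made up between 74.8 and 148 TPM of it. The part of CD4 T cells in the *Cd4* level was not tested. At day 7, 3 of 10 were lower in TCF-1 cKO cells, against 15.4% of all genes, led by *Tnfrsf4*, which encodes OX40, at -3.64 ± 0.78 and *Izumo1r*, a surface protein of regulatory cells, at -2.59 ± 0.73. Between the stages 2 of 8 tested rose and 2 fell in WT (9.7% and 10.3% of all genes), and 2 of 10 rose and 1 fell in TCF-1 cKO cells (19.7% and 16.8% of all genes). *Cxcr5* fell in both, at -6.05 ± 0.67 and -7.46 ± 0.77.

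Markers of cytotoxic CD8 T cells rose with the CD8 chains, which are 2 of the 10 genes of that list. With TMM scaling 8 of 10 were called higher in WT and 9 of 10 in TCF-1 cKO cells, against 9.7% and 19.7% of all genes. *Gzmb*, a protease of cytotoxic granules, was at 8.08 ± 0.90 and 9.28 ± 0.51. The pan T list had 4 of 9 genes lower in TCF-1 cKO cells at day 7, against 15.4% of all genes. Between the stages 7 of 9 were called higher in each genotype. In TCF-1 cKO cells the mean TPM nevertheless fell for *Cd3e* (62.7 to 53.8), *Thy1* (119 to 91.9) and, of the CD8 T list, *Eomes* (7.07 to 4.99). It rose for the other genes of both lists called higher there. Of the 10 CD8 T genes, 2 were lower in TCF-1 cKO cells at day 7, *Nkg7* at -2.95 ± 0.58 and *Ccl5* at -2.94 ± 0.59, near the 15.4% of all genes called lower. Others had values above 0 without passing, such as *Klrk1* at 1.85 ± 0.85, *Gzmb* at 0.91 ± 0.41 and *Gzmk* at 0.49 ± 0.47. Dendritic cells can carry *Cd8a* or *Cd4*. The 8 genes of CD8α dendritic cells summed to between 56.8 and 101 TPM before transplant and to between 7.39 and 18.1 TPM at day 7, and the 7 genes of plasmacytoid dendritic cells to between 142 and 407 TPM and to between 25.8 and 152 TPM. In WT, 4 of 8 and 5 of 7 of these genes fell between the stages, against 10.3% of all genes. In TCF-1 cKO cells 3 of 8 and 2 of 6 tested fell, against 16.8% of all genes.

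The genes whose log2 TPM followed each member most closely over the 12 libraries are given as a description, since the points share their library, depth and stage. For *Cd4*, among 8875 genes with a mean of at least 5 TPM, they were *H2-Ob*, *Ifngr2*, *Igkv8-28*, *Igkv12-98* and *Igkv6-32*, with Pearson r between 0.978 and 0.987. The first belongs to MHC class II and the last 3 are immunoglobulin light chain segments of B cells. For *Cd8a* they were *Hist1h3h*, *Rps13*, *Dap3*, *Pttg1* and *Htatip2*, with r between 0.929 and 0.960, and *Cd8b1* followed with r = 0.927. For *Cd8b1* they were *Atp5g3*, *Pdcd1*, *Cst7*, *Rpl27* and *H2afv*, with r between 0.953 and 0.970. *Pdcd1*, which encodes PD-1, had mean levels of 11.1 and 3.49 TPM before transplant and 482 and 165 TPM at day 7, in WT and TCF-1 cKO. For *Zbtb7b* they were *Tmem39b*, *Tor4a*, *Ptpn7*, *Pde2a* and *Meis3*, with r between 0.969 and 0.973 and GC contents between 54.2% and 57.8%. *Cd4* and *Zbtb7b*, both of the CD4 lineage, had r = 0.646.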

How the data were processed

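RNA was measured in 12 libraries, made with SMART-Seq HT and Nextera XT and sequenced paired-end. The authors deposited estimated counts and TPM per transcript from Kallisto 0.46.2. The submitters' notes name the build mm9, and the transcript set is not given in the sources used here. Kallisto divides reads shared by transcripts by a model, so levels of single transcripts are less certain than their sum. The notes also name limma.

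Transcripts were assigned to GENCODE M21 genes (GRCm38) by identifier without version. Of 117497 transcripts 116374 matched, in 35855 genes, and 115847 had the same length in M21. Estimated counts were summed per gene and rounded. Each 2-group comparison was fitted alone with edgeR 4.0.16 (TMM, filterByExpr, quasi-likelihood test, Benjamini-Hochberg, FDR 0.1 as in the study), and the change of the genotype difference between stages over all 12 libraries, in R 4.3.3. DESeq2 1.42.0, limma-voom 3.58.1, other scalings, no filter, a GC content and length correction, a replicate block and each library left out were alternatives. Ratios were of TPM plus 0.01, tested by two-sided exact permutation (SciPy 1.17.1). For the change of a genotype difference between stages, genotype labels were permuted within each stage. Intervals cover counting error only. The fits were tested on simulated data, where between 72.7% and 89% of genes changed by 4 on the log2 scale were recovered over the 4 comparisons, and between 14% and 30% of those changed by 2.

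The members and gene lists were chosen with earlier results of these data known. For each member the 5 genes of highest Pearson r of log2(TPM + 0.1), among those with a mean of at least 5 TPM, are named. Named list genes were the 2 with the smallest p in each direction among those called, or, where none passed, the 2 of highest mean TPM. Libraries with the same replicate number did not deviate together.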

Additional observations from a re-analysis of the deposited data

Results flagged for a closer look

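The genotype difference of the *Cd8a* to *Cd8b1* ratio differed between the stages, by 1.51 on the log2 scale (exact permutation p = 0.01, adjusted p = 0.03 over 3 ratios). This p-value is against no genotype difference at either stage, and it does not test an equal difference at both. The TCF-1 cKO libraries lay below WT by 1.23 before transplant (a value of -1.23, lower in 3 of 3 libraries) and above it by 0.29 at day 7, where the groups overlapped. With *Cd8a* taken from its coding transcripts alone the same quantity was 0.41 (exact permutation p = 0.375). The pre-transplant TCF-1 cKO libraries were also the shallowest, and the part of depth in this difference was not tested.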

How the results depend on the processing

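Of the fold changes of the 4 genes under the alternatives, 288 kept their direction and their side of the threshold, 12 changed sign, 11 newly passed and 9 no longer passed. Calls over all genes before transplant went from 7 to 3 with DESeq2 size factors, 1451 with the DESeq2 Wald test, 2 with limma-voom, 619 without a filter, 3 in 1 fit over 12 libraries, and between 0 and 2739 with 1 library left out. At day 7 they went from 2868 to 4524 with the Wald test and 583 with the GC content and length correction, and between 0 and 5299 with 1 library left out, the highest without the library labelled WT post-transplant replicate 3. Between stages they ranged from 1579 to 4156 in WT and from 5242 to 7114 in TCF-1 cKO cells with 1 library left out. For the change of the genotype difference they went from 1 to 1713 with the Wald test, 580 without a filter, 2 with the GC correction, and between 0 and 2093 with 1 library left out. In WT between stages, 1628 higher and 1734 lower calls became 2237 and 1442 with the GC correction.

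With the replicate block, for numbers whose libraries correlated between -0.227 and 0.0854, calls were 0 before transplant and 0 for the change of the genotype difference. With the block and the GC correction they were 13, 2 at day 7 and 2 for that change. *Zbtb7b* at day 7 was -3.48 with the block (edgeR adjusted p = 0.159).

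*Cd4* at day 7 changed sign to 0.00046 with voom, 0.12 with the GC correction, 0.16 with block and GC correction, 0.12 in 1 fit over 12 libraries, 0.24 without WT replicate 2 and 0.15 without TCF-1 cKO replicate 2, in a range of -0.74 to 0.24 with 1 library left out. *Zbtb7b* between stages in WT became -0.053 with voom, -0.049 with the block, -0.18 with the GC correction and -0.061 with both, and ranged from -0.13 to 0.90 with 1 library left out.

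The *Cd4* to *Cd8a* ratio at day 7 (-0.18) became 0.29 on counts and 0.14 with the GC correction, and ranged from -1.05 to 0.87 (0.37 among them) with 1 library left out. From coding *Cd8a* its pre-transplant difference became -0.082. The *Cd8a* to *Cd8b1* difference between stages in WT (-0.33) became 0.041 with the GC correction, and the *Zbtb7b* to *Cd4* difference before transplant (0.17) became -0.058 without WT replicate 2, in a range of -0.058 to 0.33. Per pan T level, chosen after seeing the data, signs changed for *Cd4* (0.29 before transplant, 0.52 at day 7), *Cd8b1* (0.42, 0.41), *Zbtb7b* before transplant (0.46) and *Cd8a* at day 7 (0.69). That level is a geometric mean, and at day 7 it differed between genotypes in the opposite direction to the summed pan T TPM. The change of the genotype difference of *Cd8a* to *Cd8b1* was 0.41 from coding transcripts, 1.51 with the block (exact permutation p = 0.0625, adjusted p = 0.1875) and between 1.32 and 1.77 with 1 library left out. That of *Zbtb7b* to *Cd4* (-2.46) was -3.99 on counts (exact permutation adjusted p = 0.045) and between -4.11 and -1.33 with 1 library left out, -4.11 without WT post-transplant replicate 3. The cause of these differences was not tested. Low counts of *Cd4* and *Zbtb7b* at day 7 and the shallow TCF-1 cKO libraries before transplant limit the precision.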
